A study of Capra hircus with 23 samples.

Results

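The 100 features described here were near their starting level on day 4 of a chemical conversion of goat fibroblasts and higher in every library of day 8. They were chosen from 28931 features of a gene count table by a rule on the libraries of days 0, 4 and 8. Counts were first scaled by each library's column total to CPM, the reads a feature would have in a library of fixed common size, and taken as log2(CPM + 1). A feature needed 1 or more counts over the day 0 libraries CK1, CK2 and CK3 and a day 4 mean within 1 log2 unit of the mean of CK1 and CK2, which 16240 features met. The score was the lowest of the 3 day 8 libraries minus the highest of the 3 day 4 libraries, and the 100 highest scores made the set, ranked 1 to 100. The difference between day 4 and day 8 is therefore how the members were found and is given below as a description, without a test. The libraries of days 1, 2, 3 and 6 took no part in the choice.

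The cells were ear fibroblasts of Guanzhong dairy goats 2 to 3 months old, grown on Matrigel and converted toward mammary epithelial cells by the 5i medium, which the labels call BFRTV and which holds 5 compounds. Untreated fibroblasts (day 0, labelled CK) gave 3 libraries, cells in the 5i medium gave 2 libraries each on days 1, 2, 3 and 6, and 3 libraries each on days 4 and 8. No group had another genotype, and every group after day 0 received the same cocktail, so day and length of treatment are the same variable here. The series labels 23 samples, of which 6, induced cells after passage and natural mammary epithelial cells, were not analysed here.

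Fibroblasts are mesenchymal cells that build connective tissue, whereas mammary epithelial cells line the ducts and alveoli of the gland and make milk. Each compound of the cocktail has a known target. Forskolin activates adenylate cyclase, TTNPB binds retinoic acid receptors, VPA inhibits histone deacetylases, Repsox blocks the TGF-beta type I receptor kinase and tranylcypromine inhibits the histone demethylase LSD1 as well as monoamine oxidases. In such conversions the loss of the fibroblast programme and the appearance of the new one are usually spread over days, and genes that stay quiet at first and appear late are commonly read as belonging to the later steps. The files list features by running numbers that they do not pair with gene names, and 0 of the 28931 identifiers matched the 28911 genes of the RefSeq table. For that reason members are called by rank, no function is given for any of them, and the labelled cell types could not be checked against their marker genes.

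The library totals ran from 21540742 to 26165393 counts, so that 3 counts, the limit used here for a feature listed at 0, stood for 0.115 to 0.139 CPM. The labels do not tie the libraries of a day to separate animals or cultures, so the p-values below measure the spread between these libraries, which may be technical. The sample titles of each day carry 2 codes, DF6 for 1 sample and DF7 for the rest, whose meaning is not given. The columns of the tables do not say which library is which sample, so differences between the codes cannot be told apart from other differences between the libraries of a day. Libraries of one day were not equally alike. Over all features with enough reads, the chi-square per degree of freedom was 2.59 between CK1 and CK2, 3.49 between 5i4d1 and 5i4d2 and 4.04 between 5i8d1 and 5i8d2, and 30.3 or more in every other pair of the same day. CK3 stood furthest apart, with a chi-square per degree of freedom of 1211 against CK1, and the flatness condition reads CK1 and CK2 only.

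The scores that chose the members ran from 5.56 at rank 1 through a median of 1.41 to 1.12 at rank 100. The edge of the set was shallow. The member of rank 100 had 48.1, 45.7 and 32.9 CPM in the 3 day 4 libraries and 106, 110 and 123 CPM in the 3 day 8 libraries. The first feature left out had 13.1, 12.4 and 10.9 CPM on day 4 and 37.2, 34.7 and 29.7 CPM on day 8. Their scores were 1.124 and 1.123, so the last places of the ranking are close to arbitrary.

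As a set, the members took a small share of the RNA that grew from day 6 on. They held 0.188%, 0.189% and 0.0569% of all counts in CK1, CK2 and CK3, between 0.0983% and 0.158% in the 6 libraries of days 1 to 3, and 0.197%, 0.194% and 0.166% in the day 4 libraries. On day 6 the share was 0.448% and 0.511%, and on day 8 it was 0.667%, 0.632% and 0.716%. All 5 libraries of days 6 and 8 lay above all 12 earlier ones. A higher share can come from more RNA per cell or from more cells that carry it, and bulk libraries cannot tell these apart.

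The median member changed little before day 4 and was already slightly up on day 4 itself. Relative to the mean of CK1 and CK2, the median log2 difference of the 100 members was between -0.11 and 0.14 in the libraries of days 1 to 3. On day 4 it was 0.44, 0.42 and 0.21. In 83 of 100 members the day 4 mean lay above the starting level, in 41 by more than 0.5 log2 units, so "flat to day 4" holds only within the 1 log2 unit that the rule allowed. The median difference was 1.67 and 1.38 in the day 6 libraries and 2.30, 2.29 and 2.30 in the day 8 libraries. Over all 16240 features that met the flatness condition the medians stayed between -0.03 and 0.11 in every induced library.

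**Figure D1:**
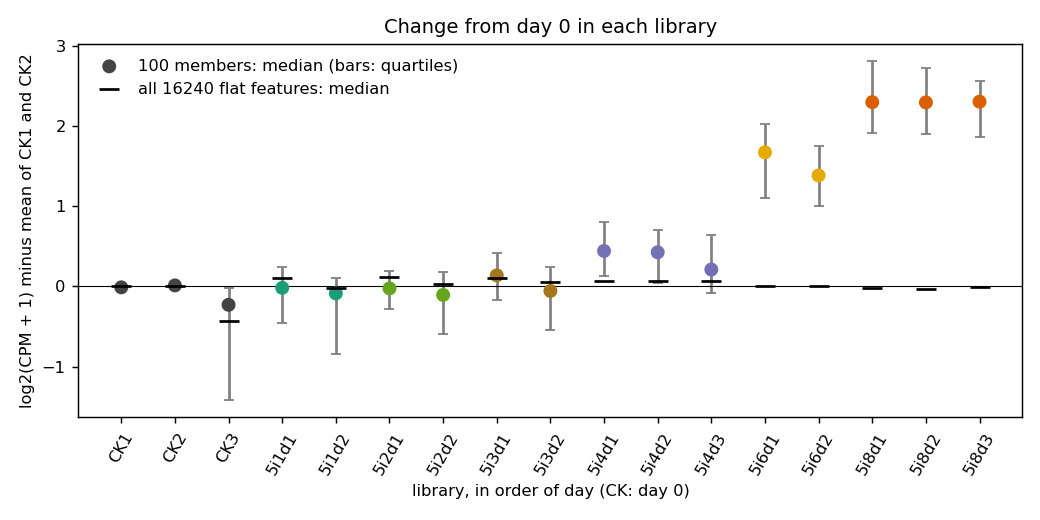
Change from day 0 in each library, as log2(CPM + 1) minus the mean of CK1 and CK2 (vertical axis), for the 100 members and for the features that met the flatness condition, libraries in order of day along the horizontal axis. The members' medians lie between -0.11 and 0.14 on days 1 to 3, at 1.67 and 1.38 on day 6 and near 2.30 on day 8.

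The members differed widely in abundance. Their mean on day 8 ran from 2.41 to 1100 CPM with a median of 14.6 CPM, against medians of 1.27 CPM in CK1 and CK2, 1.68 CPM on day 4 and 8.15 CPM on day 6. A mean of 10 CPM or more was reached by 24 members in CK1 and CK2, by 26 on day 4, by 46 on day 6 and by 57 on day 8. By the rule every member was higher on day 8, and the ratio of the day 8 to the day 4 mean CPM had a median of 5.31, quartiles of 3.59 and 10.8 and a lowest value of 2.45. Per length of the feature, the authors' FPKM values gave the members a median of 0.623 FPKM on day 4 and 4.58 FPKM on day 8.

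Members fell into 3 kinds by their level in untreated cells. The first kind, 47 members under 1 CPM in the mean of CK1 and CK2, was barely present at the start, and 14 of the 100 members had under 3 counts in both libraries. Their median day 8 to day 4 ratio was 10.1. A middle kind of 29 members started between 1 and 10 CPM and had a median ratio of 4.64. The remaining 24 members started at 10 CPM or more and had a median ratio of 3.13. Because the score adds 1 CPM before taking logs, a feature that starts near 0 and an abundant one can reach the same score with very different ratios, and both kinds stand side by side in the ranking.

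The 3 members of highest score all belonged to the first kind. Rank 1 (gene21082, 844 nt long) was at 0 and 0.0817 CPM in CK1 and CK2 and at 0.836 CPM in CK3. It stayed between 0.0383 and 0.208 CPM in the 6 libraries of days 1 to 3 and was 0.133, 0.397 and 0.815 CPM on day 4. On day 6 it was 9.69 and 112 CPM and on day 8 it was 111, 84.4 and 332 CPM. No earlier library came near the lower day 6 value, and the day 6 and day 8 ranges overlapped. Its day 8 mean was 176 ± 136 CPM (SD, n = 3), and the ratio to day 4 was 392, on day 4 values of few counts.

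Rank 2 was between 0 and 0.0417 CPM on day 0, and 0.888, 1.67 and 0.0858 CPM on day 4. It was 42.0 and 6.30 CPM on day 6 and 153, 143 and 35.3 CPM on day 8, a ratio of 125 between the day 8 and day 4 means. Here the second day 6 library and the third day 8 library were the low ones, the reverse of rank 1. Rank 3 was 0.621, 0.715 and 0.215 CPM on day 4, 4.13 and 2.58 CPM on day 6 and 32.8, 32.1 and 22.2 CPM on day 8. It was thus still far below its day 8 level on day 6.

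Ranks 5 to 10 went from a few CPM or less on day 4 to between 8.18 and 37.4 CPM on day 8. Rank 6 was 2.00, 1.19 and 1.20 CPM on day 4, 16.1 and 8.32 CPM on day 6 and 31.8, 31.4 and 19.8 CPM on day 8. Rank 5 was 2.40, 1.55 and 2.96 CPM on day 4, 11.9 and 8.36 CPM on day 6 and 36.3, 37.4 and 27.7 CPM on day 8. In both, day 6 lay between the other 2 days without overlap. Rank 7 was 0.932, 1.07 and 0.987 CPM on day 4, 3.32 and 4.36 CPM on day 6 and 14.9, 10.7 and 12.6 CPM on day 8. Rank 9 was 0.888, 0.675 and 0.300 CPM on day 4, 3.75 and 1.78 CPM on day 6 and 12.6, 8.66 and 8.18 CPM on day 8. These again kept the order of the days in every library. Rank 8 had the closest libraries of this group. It was 2.84, 3.06 and 3.71 CPM on day 0, 5.95, 5.08 and 6.39 CPM on day 4, 15.8 and 15.6 CPM on day 6 and 36.6, 35.3 and 36.6 CPM on day 8. Its steps between days 4, 6 and 8 were all larger than the range within any day. Rank 10 was 1.46, 2.18 and 2.75 CPM on day 4 and 7.92 and 26.2 CPM on day 6, and its higher day 6 library reached past the 25.8 CPM of its highest day 8 library.

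Most of the abundant members on day 8 were already present at the start, rank 1 being an exception among the 10 highest. Rank 99 (gene16380) had the highest day 8 mean, 1100 ± 96.3 CPM (SD, n = 3). It started at 609 and 603 CPM in CK1 and CK2 but at 12.4 CPM in CK3, was 508 and 182 CPM on day 1, 459 and 175 CPM on day 2 and 394 and 339 CPM on day 3. On day 4 it was 452, 454 and 413 CPM, on day 6 896 and 926 CPM and on day 8 1127, 993 and 1179 CPM. Its day 4 to day 8 ratio was 2.50, among the smallest of the set, and its level before day 4 depended strongly on the library.

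Rank 88 was 174, 182 and 2.92 CPM on day 0, 182, 171 and 138 CPM on day 4, 331 and 307 CPM on day 6 and 453, 503 and 408 CPM on day 8. Rank 49 was 114, 115 and 28.0 CPM on day 0, 136, 144 and 119 CPM on day 4, 386 and 241 CPM on day 6 and 412, 391 and 419 CPM on day 8. Rank 42 was 207, 199 and 35.6 CPM on day 0, 135, 141 and 146 CPM on day 4, 232 and 219 CPM on day 6 and 405, 427 and 417 CPM on day 8. In rank 42 the libraries of days 4 and 6 lay close together within each day, and of its earlier induced libraries 1 day 3 library, at 136 CPM, was as low as day 4. Ranks 49, 42 and 88 shared with rank 99 a CK3 value far under those of CK1 and CK2.

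Ranks 54, 68 and 86 started between 65.99 and 99.2 CPM in CK1 and CK2. Rank 68 was 134, 130 and 91.7 CPM on day 4, 314 and 214 CPM on day 6 and 412, 391 and 326 CPM on day 8. Rank 86 was 138, 137 and 116 CPM on day 4, 286 and 192 CPM on day 6 and 373, 381 and 310.0 CPM on day 8. Both already stood above CK1 and CK2 in all 3 day 4 libraries. Rank 54 was 53.9, 56.6 and 33.4 CPM on day 4, 102.1 and 69.6 CPM on day 6 and 163, 164 and 149 CPM on day 8. Rank 21 was 34.4, 34.9 and 7.68 CPM on day 4, 176 and 48.2 CPM on day 6 and 245, 232 and 130 CPM on day 8, with 5i4d3, 5i6d2 and 5i8d3 each the lowest library of its day.

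Rank 23, like rank 1, was higher in CK3 than in CK1 and CK2 and was split within days 6 and 8. It was 16.3 and 18.6 CPM in CK1 and CK2 but 110 CPM in CK3, and 21.8, 22.7 and 55.4 CPM on day 4. On day 6 it was 60.1 and 931 CPM, and on day 8 it was 280, 203 and 1024 CPM. The spread within days 6 and 8 was wider than the step between them, and the day 8 mean was 502 ± 454 CPM (SD, n = 3). Per length it was the highest member of the set on day 8, at 606 FPKM in the authors' values, followed by ranks 99, 88, 1 and 42 at 261, 242, 208 and 130 FPKM.

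**Figure D2:**
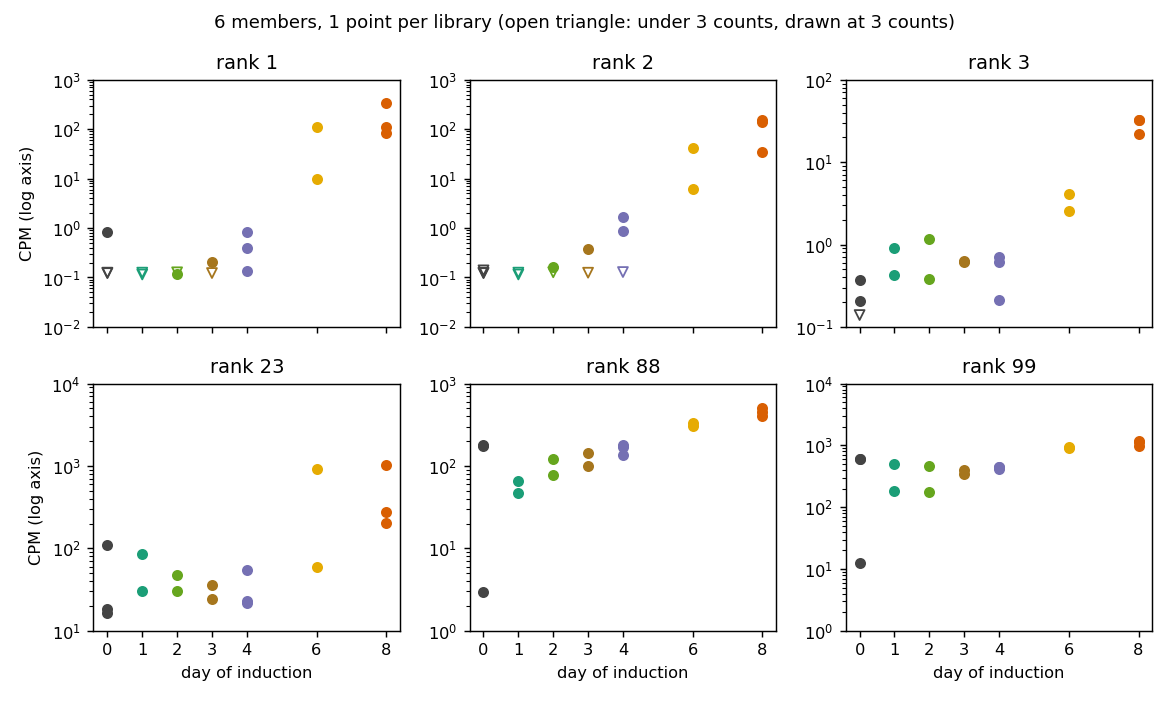
CPM on a log axis against day of induction for the members of ranks 1, 2, 3, 23, 88 and 99, with 1 point per library and an open triangle for a library under 3 counts, drawn at the CPM of 3 counts. Ranks 1 to 3 start near the count limit, ranks 88 and 99 start at 174 CPM or more in CK1 and CK2 with CK3 far below, and rank 23 is split within days 6 and 8.

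Day 6 against days 1 to 3 asked whether the late rise also stood in libraries that played no part in choosing the members. A single fit over all features of the 8 libraries of days 1, 2, 3 and 6 compared day 6 with the mean of the other days. Of the 100 members, 81 rose and 0 fell (edgeR's quasi-likelihood test, Benjamini-Hochberg adjusted p under 0.05), where 8.36% of the 16268 features tested were called higher and 5.98% lower. Rank 4 was too low for the filter, 16 members had a positive difference that was not called and 2 had a negative one. Of the 75 members that pass the filter on the days 1 to 3 libraries alone, 58 rose, against 7.39% of all features that pass in that way. Without a filter on low values the median log2 fold change of all 100 members was 2.77, against -0.01 over 21853 features.

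A count that needs no model gave a like picture. In 89 of 100 members both day 6 libraries lay above all 6 libraries of days 1 to 3, against 15.7% of the 21853 features with counts in these libraries. In 0 members did both lie below, against 20.1% of these features. The number of calls hung on each day 6 library. Without 5i6d1, 13 members were called higher, against 0.977% of all features, and 0 lower, against 0.0659%. Without 5i6d2 it was 38 higher, against 1.81%, and 0 lower, against 0.352%. Setting day 6 against day 3 alone called 0 members by edgeR's test, and 0% of all features in either direction. At an unadjusted p under 0.05, 92 members were higher, against 8.10% of all features, and 0 lower, against 8.60%.

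Among the first kind of members, those under 1 CPM at the start, 46 of 47 were tested and 41 rose on day 6, against 8.36% of all features tested. Only 22 of them passed the filter on days 1 to 3 alone, and 18 of these 22 rose, while the other 24 tested entered through their day 6 values and had to differ. Ranks 1, 2, 7, 9 and 38 are among these 24, so their values are a description and their p-values are not given. Rank 1 had a log2 fold change of 9.45 (SE 0.87) in edgeR's fit, rank 2 had 7.76 (SE 0.89) and rank 38 had 6.89 (SE 0.88). Rank 38 was 0.0444, 0.278 and 1.20 CPM on day 4 and 1.59 and 20.4 CPM on day 6. Ranks 7 and 9 had log2 fold changes of 4.18 and 4.12. Ranks 3, 6 and 10 pass the filter on days 1 to 3 alone. Rank 6 rose by 5.18 (SE 0.43, adjusted p = 0.00239 in edgeR's quasi-likelihood test), the smallest adjusted p in the set. Rank 3 rose by 2.35 (SE 0.47, adjusted p = 0.0209, edgeR) and rank 10 by 5.52. Over the 6 libraries of days 1 to 3 ranks 1, 2 and 38 had 14, 18 and 14 counts, so the sizes are loosely fixed. Where the counts over days 1 to 3 were 3 or fewer, a ratio with its exact 95% interval, which covers counting error only, is given in place of a fold change. Rank 53 had 1 count over the 6 libraries of days 1 to 3 and 409 counts over the day 6 libraries, a ratio of 1254 (224 to 49642). Rank 35 had 3 and 105 counts, a ratio of 107 (35.7 to 529), and rank 16 had 3 and 82 counts, a ratio of 83.8 (27.7 to 415). Rank 15 had 2 and 32 counts, a ratio of 49.0 (12.5 to 422).

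Of the 29 members that started between 1 and 10 CPM, 19 rose on day 6, against 8.36% of all features tested. Rank 8 rose by a log2 fold change of 1.73 (SE 0.21, adjusted p = 0.00488 in edgeR's quasi-likelihood test), after lying between 3.87 and 6.06 CPM over days 1 to 3. Rank 5 rose by 2.14 (SE 0.28, adjusted p = 0.00645, edgeR). Rank 71 had a difference of 0.79 (SE 0.24, adjusted p = 0.0725, edgeR) and was not called. Rank 36, of the same kind, had a difference of -0.22 (SE 0.38, adjusted p = 0.702, edgeR). It was 4.55 and 4.98 CPM in CK1 and CK2, 47.0 CPM in CK3, 5.05 and 10.3 CPM on day 1, 2.04, 1.91 and 2.62 CPM on day 4, 4.05 and 3.55 CPM on day 6 and 11.3, 9.51 and 9.98 CPM on day 8. Its low point was day 4, and its day 6 values lay between those of day 4 and those of CK1 and CK2.

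Of the 24 members that started at 10 CPM or more, 21 rose on day 6, against 8.36% of all features tested. Rank 88 rose by a log2 fold change of 1.92 (SE 0.21, adjusted p = 0.00402 in edgeR's quasi-likelihood test), rank 49 by 2.02 (SE 0.22, adjusted p = 0.00405, edgeR) and rank 99 by 1.51 (SE 0.38, adjusted p = 0.0413, edgeR). Without 5i6d1 none of these 3 was called, and without 5i6d2 rank 99 alone of them was not. Ranks 68, 86 and 54 rose by 1.74, 1.41 and 1.24, ranks 100 and 21 by 2.26 and 4.20. Rank 42 had a difference of 0.38 (SE 0.19, adjusted p = 0.216, edgeR) and was not called. Rank 23 was called at 3.63 (SE 0.80, adjusted p = 0.0278, edgeR), but its value without 5i6d2 was 0.59 and was not called, so the call rested on the library with 931 CPM.

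**Figure D3:**
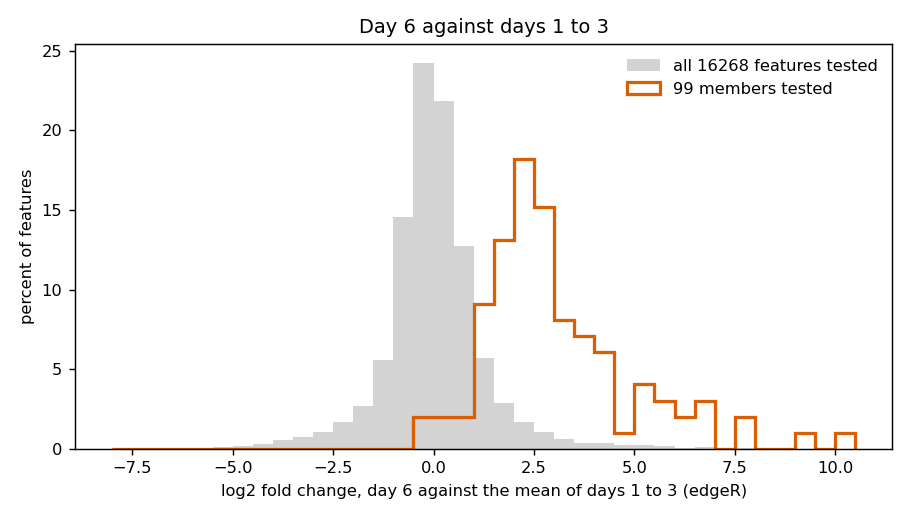
Distribution of the log2 fold change of day 6 against the mean of days 1 to 3 in edgeR's fit of 8 libraries, for the members tested and for all features tested. Called members lie between 1.24 and 10.03, the highest resting on 1 count over days 1 to 3, whereas the median over all features is -0.04.

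The rise was partly made by day 6. On the log2(CPM + 1) scale the day 6 mean had covered a median of 60.7% of the distance between the day 4 and day 8 means, with quartiles of 49.0% and 74.4% and a range of 7.72% to 94.0% over members. The median was 64.0% by 5i6d1 and 51.1% by 5i6d2. Since days 4 and 8 chose the members, this is a description. In 95 members both day 6 libraries lay above the highest day 4 library, and in 72 both lay below the lowest day 8 library. The rule chose members for a wide gap between these 2 limits, which favours day 6 values between them. The share over all features was not counted, so the 95 and 72 are a description too. The median share was 55.3% for members that started under 1 CPM, 60.8% for those from 1 to 10 CPM and 71.4% for those at 10 CPM or more. Steps near 0 CPM count for little on this scale, so these shares do not show which kind rose earlier.

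Both ends of that range had recognisable members. Ranks 55, 52, 100 and 47 had covered 94.0%, 91.1%, 90.9% and 90.9% of the distance by day 6. In ranks 55, 52 and 47 the high share rested on 5i6d2, with 36.5%, 52.7% and 48.0% covered in 5i6d1. Rank 55 was 22.8, 23.7 and 31.7 CPM on day 4, 43.5 and 219.98 CPM on day 6 and 100.7, 84.2 and 144 CPM on day 8. Rank 100, at 108 and 98.5 CPM on day 6, was near its day 8 level in both. At the late end, ranks 4, 15 and 25 had covered under 25% of the distance on the log2(CPM + 1) scale, where steps near 0 CPM count for little. Rank 25 was 0.799, 0.318 and 1.24 CPM on day 4, 1.85 and 0.929 CPM on day 6 and 8.33, 8.09 and 6.92 CPM on day 8, and its day 6 difference was 0.11 (SE 0.66, adjusted p = 0.914, edgeR's quasi-likelihood test). Rank 74 had a difference of -0.39 (SE 1.13, adjusted p = 0.829, edgeR) between very unlike early libraries, at 1.96 and 12.4 CPM on day 1 and 0.467 and 4.23 CPM on day 2, before 1.81 and 2.54 CPM on day 6 and 7.56, 7.24 and 7.91 CPM on day 8. Of the 9 members with a day 6 library above the highest day 8 library, 7 had it in 5i6d2 and 2 in 5i6d1.

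Between day 1 and day 3, 0 members and 0% of all features were called in either direction by edgeR's quasi-likelihood test, and the smallest adjusted p of a member was 0.305. At an unadjusted p under 0.05, 9 members were higher and 5 lower on day 3, against 4.71% and 5.27% of all features. DESeq2 called 1.23% of features higher and 1.03% lower between these days, and 0 of them were members. With the number in the library name as a replicate block, edgeR called 266 features, 132 higher and 134 lower, of which 1 was a member, higher on day 3. The 2 day 1 libraries differed by an SD of 0.94 in log2 over features, and the power of this comparison was not simulated.

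In 11 members the mean of days 1 to 3 fell short of the mean of CK1 and CK2 by more than 1 log2 unit, and only rank 23 lay above it by more than 1, at 1.11. The other 88 were within 1. All 11 started at 1 CPM or more, where a dip can be seen, which makes 11 of 53 such members or 20.8%, against 203 of 10876 such features that met the flatness condition or 1.87%. These shares are counts over features of the same libraries and were not tested, and the baseline itself was used by the rule.

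Rank 37 had the deepest dip, of -2.20. It was 26.5 and 27.8 CPM in CK1 and CK2, 3.93 and 1.61 CPM on day 1, 12.2 and 2.12 CPM on day 2 and 13.6 and 5.78 CPM on day 3. It was then 34.4, 33.3 and 19.9 CPM on day 4, 86.8 and 65.1 CPM on day 6 and 101.2, 112 and 101.2 CPM on day 8. The course was thus low on day 1, back by day 4 and higher after it. Rank 60 went from 24.1 and 24.7 CPM in CK1 and CK2 to 9.52 and 0.805 CPM on day 1 and to 128, 135 and 121 CPM on day 8, and its day 6 difference of 2.81 (SE 0.95, adjusted p = 0.0929, edgeR's quasi-likelihood test) was not called.

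The dips moved with the library as well as with the day. In 9 of the 11 members the second library was lower than the first on all of days 1, 2 and 3. In 9 of the 11 CK3, an untreated library, was itself more than 1 log2 unit below CK1 and CK2, as were 41.4% of the features that met the flatness condition. Of those features, 0.868% lay more than 1 below in 5i1d1 and 12.7% in 5i1d2. On day 2 these shares were 0.486% and 5.48%, on day 3 0.542% and 1.48%, and on day 6 5.25% and 3.47%. Rank 37 had 1.25 CPM in CK3 and rank 60 had 0.186 CPM. Over all 100 members, 70, 66, 71 and 72 were lower in the second library of days 1, 2, 3 and 6. The share of all features lower in the second library was not counted. The part of the library in the dips was not tested. The day 6 comparison takes the same days 1 to 3 as its reference, so calls there are favoured for these 11. The 81 members called higher include 9 of the 11, rank 88 among them, against 8.36% of all features tested.

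**Figure D4:**
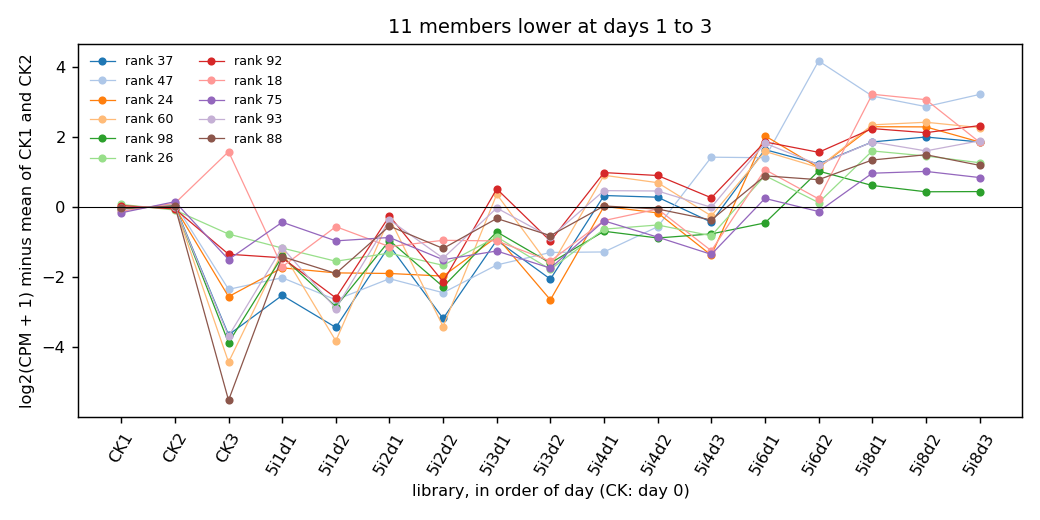
Change from day 0 in each library, as log2(CPM + 1) minus the mean of CK1 and CK2 (vertical axis), libraries in order of day along the horizontal axis, 1 line for each of the 11 members whose mean over days 1 to 3 was more than 1 log2 unit below CK1 and CK2. Most lines dip in CK3 and lie below 0 on days 1 to 3, deepest for rank 37 with a mean of -2.20, and end highest on days 6 and 8.

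CK3 moved with the starting level of the members. In CK3, 31 members were more than 1 log2 unit below the mean of CK1 and CK2, 7 were more than 1 above it and 62 were within 1. The 31 were 19 of the 24 members that started at 10 CPM or more, 12 of the 29 from 1 to 10 CPM and 0 of the 47 under 1 CPM, which have little room to be lower. Among all features that met the flatness condition 41.4% were more than 1 below in CK3, so a low CK3 was not particular to the members. Column totals lower the values of CK3, whose TMM factor (edgeR's scaling by the bulk of features) was 0.372. With TMM scaling, an alternative added after seeing the data, 22 members were more than 1 below, 18 more than 1 above and 60 within 1, and 32.0% of the features that met the flatness condition were more than 1 below. Had the baseline been the mean of CK1, CK2 and CK3, 80 of the 100 members would have been chosen.

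The 2 day 6 libraries and the 3 day 8 libraries split the members along the same line. Between 5i6d1 and 5i6d2, 9 members were more than 1 log2 unit higher in 5i6d2 and 10 were more than 1 higher in 5i6d1. Between 5i8d3 and the mean of 5i8d1 and 5i8d2, 3 members were more than 1 higher and 6 more than 1 lower. The 8 members past 1 in both differences were on the same side in both, and 0 were on opposite sides. Across the 100 members the day 6 difference and the day 8 difference had a Pearson r of 0.816 and a Spearman rho of 0.768, and over 13201 features of enough reads they were 0.691 and 0.581. These are correlations across features, whose points share the same 5 libraries, and features are not independent replicates.

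Ranks 1, 23 and 38 made up the side that was high in both 5i6d2 and 5i8d3. Rank 38 was 1.59 and 20.4 CPM on day 6 and 6.30, 5.33 and 17.2 CPM on day 8. The opposite side held ranks 2, 45, 53, 63 and 83. Rank 53 was 15.6 and 1.90 CPM on day 6 and 38.9, 38.0 and 5.27 CPM on day 8, and it had already been 1.15, 1.39 and 0.0429 CPM on day 4. The late features were thus not 1 block that rose evenly in every library. Leaving 5i8d3 out of the rule kept 65 of the 100 members, the fewest of any library left out.

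**Figure D5:**
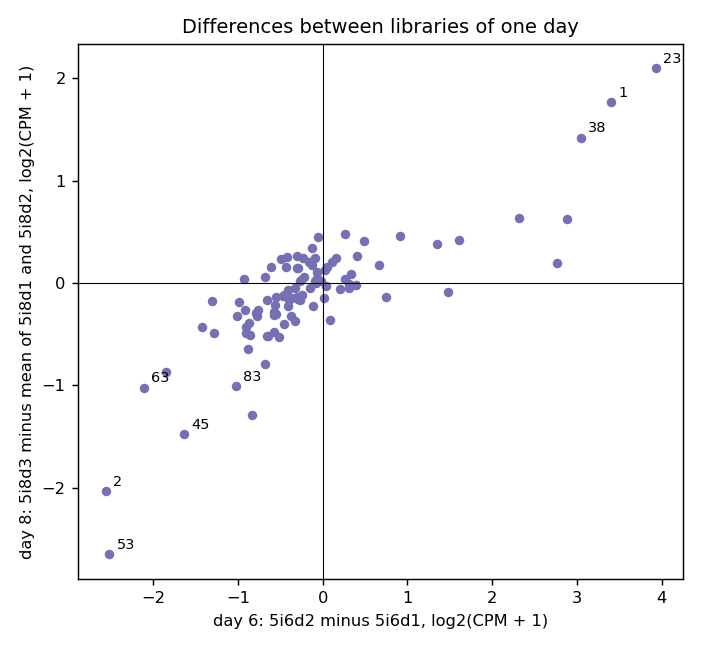
Difference between the 2 day 6 libraries (5i6d2 minus 5i6d1, horizontal) against that between day 8 libraries (5i8d3 minus the mean of 5i8d1 and 5i8d2, vertical), both in log2(CPM + 1), 1 point per member. The points lie along a rising line with r 0.816 over 100 members, ranks 1, 23 and 38 at its upper end.

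A mirrored rule, with the same flatness condition and the lowest day 4 minus the highest day 8 library as the score, gave 100 features that were flat to day 4 and then lower. It shared 0 members with the set by construction. On day 6 against days 1 to 3, 51 of these 100 were called lower by edgeR's test, against 5.98% of all features, with a median log2 fold change of -1.28, and in 65 both day 6 libraries lay below all 6 earlier ones, against 20.1% of features. For the late risers the counts in the other direction were 81, against 8.36% of all features, and 89, against 15.7%. Some of the 81 passed the filter only through their day 6 values. Of the 75 risers that pass it on days 1 to 3 alone, 58 were called, against 7.39% of such features. The difference between the 2 sets was not tested.

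Feature lengths could be recovered from the ratio of CPM to FPKM and were not used by the rule. The members had a median of 3332 nt, with quartiles of 2022.25 and 5319 nt and a range of 575 to 11172 nt. Over the features that met the flatness condition the median was 2426.5 nt. Under 1000 nt were 9% of the members and 16.6% of those features. By starting level the medians were 2447 nt for members under 1 CPM, 3899 nt from 1 to 10 CPM and 4032.5 nt at 10 CPM or more. Longer features gather more reads at the same abundance, and the score was taken on CPM, which has no length term. Whether this bears on the lengths of the members was not tested.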

How the data were processed

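RNA of 17 libraries (rRNA depleted, Illumina) was analysed. The authors deposited a table of raw read counts per feature and a table of FPKM values, both used as deposited. The submitters' processing notes name FastQC 0.10.1, HTSeq and DESeq2 1.16.1, and the aligner, genome build and annotation are not given in the sources used here. FPKM divides by length as well as depth, CPM by depth only.

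Counts were scaled to CPM by column totals. The members, the mirrored set and the tests were chosen with earlier results of these data known. Differences were tested with edgeR 4.0.16 (glmQLFit and glmQLFTest, TMM, filterByExpr, R 4.3.3) on the 8 libraries of days 1, 2, 3 and 6, with day as a factor, and p-values were adjusted by Benjamini-Hochberg over all features tested at a threshold of 0.05. The square root of the common dispersion was 0.356. On simulated counts for the day 6 comparison over 16268 features, edgeR recovered 1 of 50 features changed 2-fold, 30 of 50 changed 4-fold, 44 of 50 changed 8-fold and 47 of 50 changed 16-fold, with 2 false calls of 124. Alternatives were DESeq2 1.42.0, limma 3.58.1 on log2(FPKM + 1) and log2(FPKM + 0.1), RLE scaling, no filter and a minimum mean of 5 CPM. Further ones were all 17 libraries, a replicate block, day 3 as the only reference and each library left out. With DESeq2 45 of 191 calls on the simulated counts were false, and with limma, there on log2(CPM + 1), 4 of 125. The simulation changed 50 features at each fold, whereas 2333 were called in the data. In the real libraries the difference between second and first library correlated at 0.834, 0.668 and 0.776 among days 1 to 3. The simulated rates thus hold for the simulated counts only and do not give the error of the reported fit. Values are given for ranks 1 to 10, the 10 members of highest mean CPM on day 8, the 5 with the highest and the 5 with the lowest fold change of day 6, and the edge of the ranking. Ranks 12, 15, 16, 37, 45, 47, 52, 55, 60, 63 and 83 were named after their values were seen. Intervals and the limit of 3 counts cover counting error only.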

Additional observations from a re-analysis of the deposited data

Results flagged for a closer look

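The rise of the members on day 6 was singled out because a test of the difference between time points passed: 81 members were called higher on day 6 than over days 1 to 3, against 8.36% of all features tested, by edgeR's quasi-likelihood test, and 0 were called lower. The number of calls fell without either day 6 library, over all features as well as among the members. The members' median log2 fold change was 2.75 with both libraries, 2.41 without 5i6d1 and 2.74 without 5i6d2. Over all features tested these medians were -0.04, -0.03 and -0.04. Of the 75 members that pass the filter on days 1 to 3 alone, 58 were called higher, against 7.39% of all features that pass in that way. With 2 or 3 libraries a day no formal outlier test of single values was made. CK3, which lay far from CK1 and CK2, is described above.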

How the results depend on the processing

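Of the 81 members higher on day 6, the number was 79 to 91 with DESeq2, RLE scaling, no filter, all 17 libraries, limma on FPKM or the replicate block, against 6.93% to 16.9% of all features. It was 34 with a minimum mean of 5 CPM, where 40 members were tested, 0 with day 3 as the only reference, and 13 to 88 with 1 library left out, the lowest without 5i6d1 and 38 without 5i6d2. A left-out day 6 library leaves 1, assumed to vary like the other days. Members called lower were 0 in each fit that kept every library, against 4.10% to 13.8% of all features, and 0% with day 3 alone. Over all features the 2333 calls became 3744 with DESeq2, 1467 with the 5 CPM minimum, 4996 with the replicate block, 0 with day 3 alone and 174 to 4771 with 1 library left out. The split of 1360 higher and 973 lower turned to 1261 and 1605 in limma on log2(FPKM + 1) and to 1128 and 1779 with 0.1 added. Between days 1 and 3, the 0 calls over all features became 367 with DESeq2, 15 without a filter, 9 with all 17 libraries, 7 in limma on log2(FPKM + 1) and 266 with the replicate block, which called 1 member higher, and stayed at 0 with any 1 library left out. The block used the number in each library's name. The difference between second and first library correlated between days at 0.834 (days 1 and 2), 0.668 (1 and 3), 0.0514 (1 and 6), 0.776 (2 and 3), 0.150 (2 and 6) and 0.292 (3 and 6), and nothing in the labels ties the numbers to a culture. With the correlation of days 1 and 6 under 0.1 the block was kept as an alternative, although days 1, 2 and 3 varied together. The count of 89 members whose day 6 libraries lay above days 1 to 3 ran from 89 to 93 with 1 library left out, and the 60.7% of the distance covered by day 6 from 51.1% to 64.0%. Of the 100 members, 56 stayed with log2(CPM + 0.1), 64 with log2(FPKM + 1), 50 with a flatness limit of 0.5 and 65 to 98 with 1 library left out, the fewest without 5i8d3. In all 15 settings 12 members stayed. Under TMM scaling, added after seeing the data, 22 and not 31 members were more than 1 log2 unit lower in CK3. Among named members the direction turned for ranks 25, 36 and 74 alone, none of them called. Rank 25 (0.11) ran from -0.46 to 0.55 with 1 library left out and was -0.06 without 5i1d1, -0.11 without 5i2d1, -0.04 without 5i3d1 and -0.46 without 5i6d1. Rank 36 (-0.22) was 0.46 against day 3 alone and ran from -0.39 to 0.035 with 1 library left out, the highest without 5i1d2. Rank 74 (-0.39) ran from -0.68 to 0.46 with 1 library left out and was 0.75 against day 3 alone, 0.31 without 5i1d2, 0.45 without 5i2d2, 0.46 without 5i3d2, 0.10 in limma on log2(FPKM + 0.1) and 0.39 with the replicate block. The cause of these changes was not tested.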

Other observations

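Of the 100 members, 3 carried consecutive running numbers in the feature table (ranks 12, 4 and 15), and 12 lay within 10 numbers of another member. In the mirrored set these counts were 0 and 6. No chance level was worked out for these counts, and the difference between the sets was not tested. Whether running numbers follow position in the genome is not stated in the files, so the run may or may not be a stretch of neighbours.

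The 3 consecutive features had a like course. Rank 12 was 0.444, 0.318 and 0.172 CPM on day 4, 1.85 and 1.33 CPM on day 6 and 5.76, 5.41 and 4.93 CPM on day 8. Rank 4 was 0.125, 0.163 and 0.139 CPM on day 0, 0, 0.0397 and 0 CPM on day 4, 0.172 and 0.242 CPM on day 6 and 9.05, 10.2 and 7.26 CPM on day 8. All 3 were highest on day 8 in every library, and rank 4 was the latest of them. Its 643 counts on day 8 stood against 1 count on day 4, a ratio of 626 with an exact 95% interval of 112 to 24756. Rank 15 was 0.222, 0.119 and 0.129 CPM on day 4, 0.861 and 0.484 CPM on day 6 and 5.09, 5.41 and 3.82 CPM on day 8. The feature numbered just before the run was listed at 0 in all 3 day 4 libraries and was 0.360, 0.610 and 0.0382 CPM on day 8. The one before that was 0.0444, 0.199 and 0.215 CPM on day 4, 0.215 and 0.444 CPM on day 6 and 0.990, 1.46 and 1.53 CPM on day 8, so it too was highest on day 8, at a lower level. The feature just after the run was 2.00, 1.55 and 1.93 CPM on day 4 and 3.47, 3.13 and 3.75 CPM on day 8. As days 4 and 8 chose the members, these values are a description.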
